A study of Mus musculus with 288 samples.

Results

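The 10 genes described here encode antioxidant enzymes and were followed through the release of mouse embryonic stem cells from 2i into serum, namely the superoxide dismutases Sod1 and Sod2, the peroxiredoxins Prdx1, Prdx2, Prdx4 and Prdx6, and Hmox1, Nqo1, Gclm and Txnrd1. They were chosen by name, as 10 of the 54232 genes in a table of single-cell read counts, and all 10 had reads under each label. Cells labelled as the line E14 (strain 129/Ola) under all 3 labels were grown in N2B27 with LIF and the 2i inhibitors CHIR99021 and PD0325901, and were then moved into medium with serum and LIF. Both media contained 2-mercaptoethanol, a reducing agent. Cells were sorted one per well at 0 h (D0), 24 h (D1) and 48 h (D2), and their RNA was read by scNMT-seq, in which the RNA and the DNA of a cell are separated after an enzyme has marked open chromatin. A cell passed if it had over 200000 reads on over 2000 genes and under 15% of its reads on mitochondrially encoded genes, which left 90 of 96 wells in D0, 50 of 96 in D1 and 93 of 96 in D2. These are 233 cells, more than the study states that it kept, so the sets of cells differ. Wells at the edge of the plate made up 34 of the passing wells in D0, 5 in D1 and 36 in D2. The labels give 1 culture per time point, so cells were not treated as replicates, no test was run, and plate, library, time and, for D1, a possible difference in cell line cannot be told apart.

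Superoxide, a by-product of respiration, is converted to hydrogen peroxide by superoxide dismutases. Hydrogen peroxide is in turn reduced by peroxiredoxins, most of which take their electrons from thioredoxin. The transcription factor NRF2 (Nfe2l2) is held at a low level by KEAP1 and, when oxidants or electrophiles modify KEAP1, binds antioxidant response elements near genes such as Hmox1, Nqo1, Gclm, Txnrd1 and Prdx1. BACH1 binds the same elements and represses them. Mouse embryonic stem cells are known for a strong antioxidant defence.

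The core of the antioxidant response element, TGACNNNGC on either strand, was searched in RefSeq promoter windows of GRCm38.p6 that run from 250 bases before to 50 bases after a start. Of the 10 genes, 8 were in the table and Hmox1 and Prdx6 were not. The core was present in a window of 4 of these 8 genes, beside 14% of 27025 genes in the table. The windows with a match are shown because they are the letters at which NRF2 or BACH1 binding could be looked for, and each was read on the + strand, which is the strand of all 4 genes, with the matched core in capitals (as its reverse complement). The Prdx1 match overlaps the AP-1 motif TGAGTCA, which was searched on both strands and was in the windows of 1 of the 8 genes and of 5.95% of all genes in the table. In Txnrd1 the match lies in 1 of 3 windows. Positions are chr4:116685456-116685484 for Prdx1, chr3:122245413-122245441 for Gclm, chr10:82859104-82859132 for Txnrd1 and chr16:90220696-90220724 for Sod1, and the core is centred 129, 130, 88 and 52 bases before the respective start.
Prdx1: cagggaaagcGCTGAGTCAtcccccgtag
Gclm: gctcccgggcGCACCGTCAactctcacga
Txnrd1: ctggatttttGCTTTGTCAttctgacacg
Sod1: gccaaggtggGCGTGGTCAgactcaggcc
The windows of Sod2, Prdx2, Prdx4 and Nqo1 held no match, which says only that these letters are not in these windows.

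Reads on genes per passing cell had a median of 1610758.5 in D0 (255040 to 10073010), 7956161.5 in D1 (202157 to 43336922) and 2162090 in D2 (491549 to 9812323). With each cell thinned to 200000 reads, the median number of genes detected was 7796.5, 8043 and 3946, so D2 cells had reads on fewer genes at equal depth. Gene positions are given with the GENCODE identifier on GRCm38. The cells labelled D1 stood apart in Hprt and in Y-linked genes. The source that the study gives for E14 describes an HPRT-deficient line. At full depth, which was greatest in D1, Hprt had a read in 96.0% of the passing D1 cells, against 10.0% in D0 and 7.53% in D2. Its mean level was 207 CPM against 3.08 and 2.68 CPM. Reads of Ddx3y, Eif2s3y, Uty and Kdm5d, which are 4 genes of the Y chromosome, together had a mean of 269 CPM in D1, against 22.9 CPM in D0 and 5.21 CPM in D2. Few cells departed from their label at a limit of 20 CPM of these genes (3 in D0, 4 in D1 and 2 in D2). The Hprt reads of D1 go against that source, so D1 here names the library labelled D1, and a change with time between D1 and the other labels cannot be told apart from a difference in cell line. Pluripotency markers were read under all labels (8 of 8), with summed medians of 4962, 6543 and 9626 CPM in the order D0, D1, D2. The summed median was 0 in each label for fibroblast, primitive endoderm, trophectoderm and 2-cell-like markers. Some read of the 7 fibroblast markers was found in 7 D0, 21 D1 and 7 D2 cells. Their highest sum was 112 CPM in D1, nearly all of it Dcn in 1 cell. Trophectoderm markers were read in 28 D0, 23 D1 and 11 D2 cells, with highest sums of 165, 121 and 902 CPM, the last from Krt7 in 1 cell. Primitive endoderm markers were read in 18, 12 and 6 cells, with highest sums of 181, 21.7 and 93.2 CPM.

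Levels are CPM, the reads of a gene relative to all reads on genes in that cell after scaling to a common total, and are given as mean ± SD, where the SD is that between cells of a label. The reads summed over a label were at least 8835 for each gene, so counting error of these sums was at most 2.09%. The means weight each cell equally whatever its depth, so this is not the error of a mean. The spread between cells was far larger. The intervals given for shares of cells cover counting error only. On the scale of CPM per kilobase of the principal transcript, Sod1 was highest of the 10 genes in D0 (1737) and in D1 (2551), with Prdx1 next (1162 and 1628). In D2 Prdx1 was highest at 2628 per kilobase, and Prdx2, Sod1 and Prdx6 followed at 345, 330 and 325, levels that lie closer together than the spread between cells. Gclm had the lowest mean in all 3 labels, at 10.1, 9.81 and 13.2 per kilobase. By the median over cells Nqo1 was lower than Gclm in D2 (0 against 5.79 CPM). Prdx1 was also among the 50 most abundant genes of the series.

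**Figure D1:**
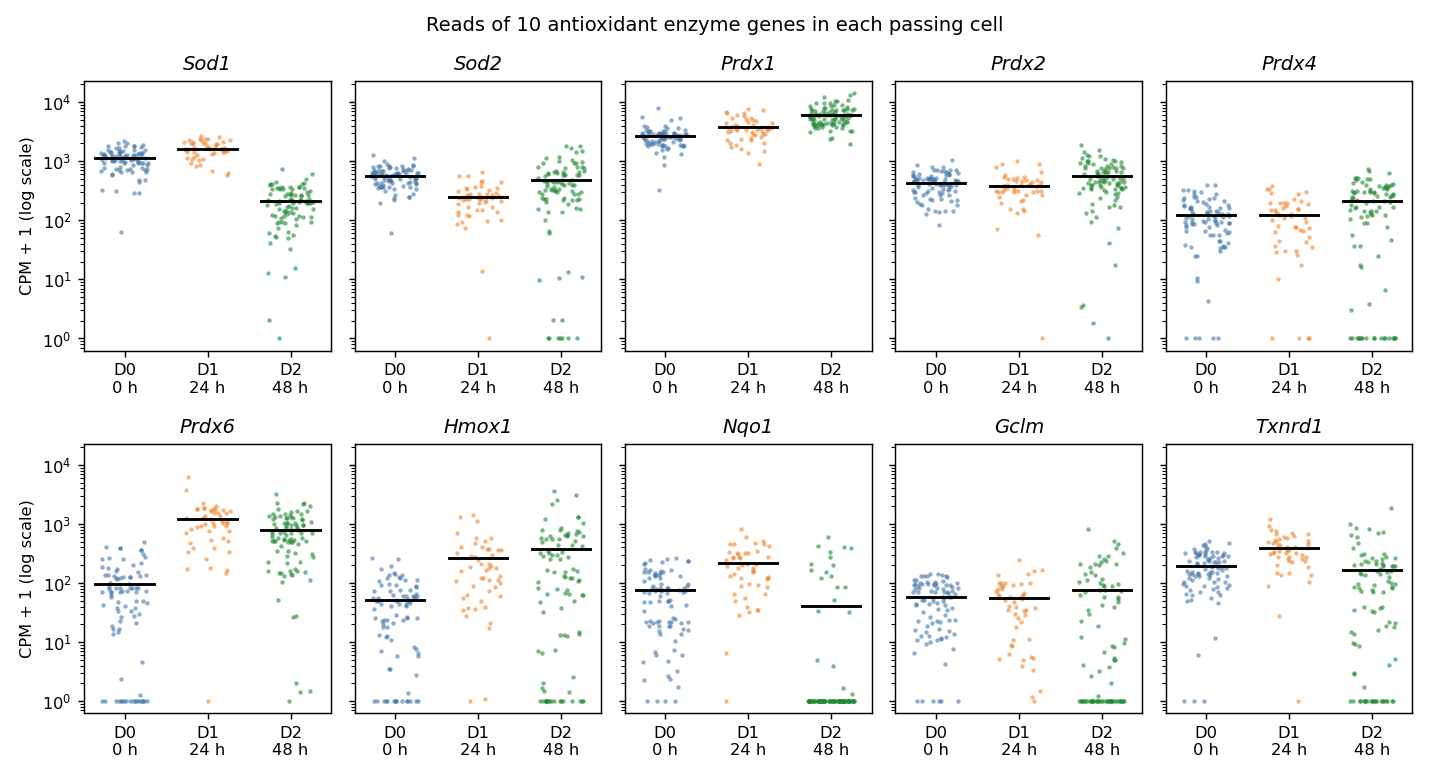
Each point is 1 passing cell (D0, 90 cells; D1, 50 cells; D2, 93 cells), the y axis gives CPM + 1 on a log scale, and the black line is the mean. Sod1 sits lowest in D2, Prdx6 and Hmox1 sit lowest in D0, and most D2 cells have Nqo1 at 0.

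Sod1 (ENSMUSG00000022982.10, chr16:90220754-90226329), the copper-zinc superoxide dismutase of the cytosol, had the lowest ratio of mean levels among the members at 48 h, although by the median over cells Nqo1 was lower, at 0 CPM in D2. It measured 1113 ± 426 CPM in D0 (lowest cell 62.3, median 1111, highest 2187), 1635 ± 516 CPM in D1 (581, 1628 and 2648) and 211 ± 136 CPM in D2 (0, 199 and 743). The full ranges overlapped, but the middle 50% of cells ran from 813 to 1370 CPM in D0 and from 115 to 283 CPM in D2. The log2 ratio of the means was -2.39 in D2 over D0 and -2.95 in D2 over D1. The gene was still detected at that lower level, since 97.8% of thinned D2 cells had a read (95% interval 92.4% to 99.7%). Reads assigned to the near-identical pseudogene Gm8566 amounted to between 2.70% and 3.41% of the pair's reads.

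Sod2 (ENSMUSG00000006818.5, chr17:13006846-13040063), the manganese enzyme of the mitochondrial matrix, followed another order. Its level was 560 ± 206 CPM in D0 (lowest 60.6, median 553, highest 1293), 246 ± 137 CPM in D1 (0, 229 and 650) and 471 ± 409 CPM in D2 (0, 389 and 1837). The log2 ratio was -1.18 in D1 over D0, while D2 over D1 gave 0.93. Cells of D2 were the most uneven, with a coefficient of variation of 0.87 against 0.37 in D0. The D1 over D0 ratio was under 2-fold with reads summed over cells (-0.96) and with TMM and median-of-ratios factors (-0.75 and -0.86).

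Prdx1 (ENSMUSG00000028691.12, chr4:116685544-116700822), an abundant cytosolic peroxiredoxin, had a read in every cell. Its level was 2665 ± 999 CPM in D0 (lowest 330, median 2622, highest 7978), 3734 ± 1603 CPM in D1 (913, 3458 and 7668) and 6028 ± 2309 CPM in D2 (1956, 5723 and 14133). The order was D0, D1, D2, and the D2 over D0 log2 ratio was 1.18. The full ranges of neighbouring labels overlapped, and so did the middle 50% of cells, which ran over 2134 to 2942, 2605 to 4599 and 4283 to 7333 CPM. Reads on the pseudogenes Gm21399 and Gm7204 made up 3.61%, 2.44% and 2.75% of the reads of the 3 loci.

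Prdx2 (ENSMUSG00000005161.15, chr8:84969587-84974834), the second cytosolic peroxiredoxin, and Prdx4 (ENSMUSG00000025289.15, chrX:155323918-155340754), the secreted and endoplasmic reticulum form, had no ratio past 2-fold. Prdx2 measured 432 ± 187, 386 ± 207 and 556 ± 367 CPM in D0, D1 and D2. Its exons overlap those of Junb and Rnaseh2a on the opposite strand, so its reads are uncertain where strand was not used. Prdx4 measured 123 ± 90.4, 123 ± 97.9 and 207 ± 181 CPM. The largest log2 ratio of the pair was 0.75, for Prdx4 in D2 over D1 and over D0. The share of thinned cells with a Prdx4 read nevertheless was 93.3% in D0 (86.1% to 97.5%), 92% in D1 (80.8% to 97.8%) and 79.6% in D2 (69.9% to 87.2%).

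Prdx6 (ENSMUSG00000026701.15, chr1:161240112-161251219), a peroxiredoxin with one catalytic cysteine that also acts on phospholipids, was the member with the largest ratio to D0. It was at 95.1 ± 110 CPM in D0 (lowest 0, median 69.9, highest 493), 1208 ± 1007 CPM in D1 (0, 1033 and 6172) and 775 ± 614 CPM in D2 (0, 671 and 3267). The middle 50% of cells did not overlap between D0 (14 to 128 CPM) and D1 (545 to 1664 CPM) or D2 (282 to 1074 CPM). The fold of the means was 12.6 for D1 against D0 (log2 ratio 3.65) and 8.08 for D2 against D0 (3.01). Under other settings these log2 ratios ran from 2.23 to 4.12 and from 1.65 to 3.49, so the size of the fold depends on the processing. A read was found in 77.8% of thinned cells in D0 (67.8% to 85.9%), 98.0% in D1 (89.4% to 99.9%) and 96.8% in D2 (90.9% to 99.3%). The log2 ratio of D2 over D1 was -0.64, under 2-fold, and the middle 50% of cells of D1 and D2 overlapped.

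Hmox1 (ENSMUSG00000005413.8, chr8:75093621-75100589), the heme oxygenase whose products include biliverdin, had the next largest ratio. Its level was 50.2 ± 54.5 CPM in D0 (lowest 0, median 40.2, highest 259), 266 ± 307 CPM in D1 (0, 171 and 1392) and 373 ± 629 CPM in D2 (0, 121 and 3673). The log2 ratios to D0 were 2.38 for D1 and 2.87 for D2. The mean of D2 came from a minority of cells, in that the 10 highest of 93 held 51.7% of the summed CPM, against 34.3% in the 9 highest of 90 D0 cells. By the median over cells the level in D2 was below that in D1, whereas by the mean it was above. The share of thinned cells with a read was 75.6% in D0 (65.4% to 84%), 96.0% in D1 (86.3% to 99.5%) and 75.3% in D2 (65.2% to 83.6%).

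Nqo1 (ENSMUSG00000003849.8, chr8:107388225-107403206), a quinone reductase widely used as a readout of NRF2, separated from Hmox1 at 48 h. Its level was 74.2 ± 70.8 CPM in D0 (lowest 0, median 55, highest 265), 218 ± 171 CPM in D1 (0, 176 and 812) and 39.9 ± 109 CPM in D2 (0, 0 and 610). The log2 ratio was 1.54 in D1 over D0, -0.88 in D2 over D0 and -2.42 in D2 over D1. In D2, 72 of 93 cells had no Nqo1 read at full depth, and the 10 highest cells held 85.3% of the summed CPM. At equal depth a read was found in 87.8% of D0 cells (79.2% to 93.7%), 98.0% of D1 cells (89.4% to 99.9%) and 19.4% of D2 cells (11.9% to 28.9%).

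Gclm (ENSMUSG00000028124.15, chr3:122245557-122270732), the modifier subunit of the enzyme that limits glutathione synthesis, had similar means under all labels but differed in detection. The level was 56.2 ± 41.2 CPM in D0 (median 53), 54.8 ± 51.2 CPM in D1 (median 43.7) and 73.8 ± 134 CPM in D2 (median 5.79). A read was found in 87.8% (79.2% to 93.7%), 86% (73.3% to 94.2%) and 49.5% (38.9% to 60.03%) of thinned cells. The D2 over D0 log2 ratio was 0.39 by the mean and -2.99 by the median over cells. Its exons are overlapped by Gm17494 on the opposite strand and by the pseudogene Gm6061.

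Txnrd1 (ENSMUSG00000020250.10, chr10:82833951-82897712), the cytosolic thioredoxin reductase that recharges thioredoxin, was highest in D1. It measured 194 ± 119 CPM in D0 (lowest 0, median 172, highest 520), 393 ± 235 CPM in D1 (0, 357 and 1204) and 165 ± 276 CPM in D2 (0, 81.1 and 1894). The log2 ratio was 1.01 in D1 over D0, -0.23 in D2 over D0 and -1.24 in D2 over D1. The D1 over D0 value lies at the 2-fold limit and passed below it in 5 settings, to 0.92 with no filter on cells. Shares of thinned cells with a read were 96.7% (90.6% to 99.3%), 98.0% (89.4% to 99.9%) and 74.2% (64.1% to 82.7%).

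**Figure D2:**
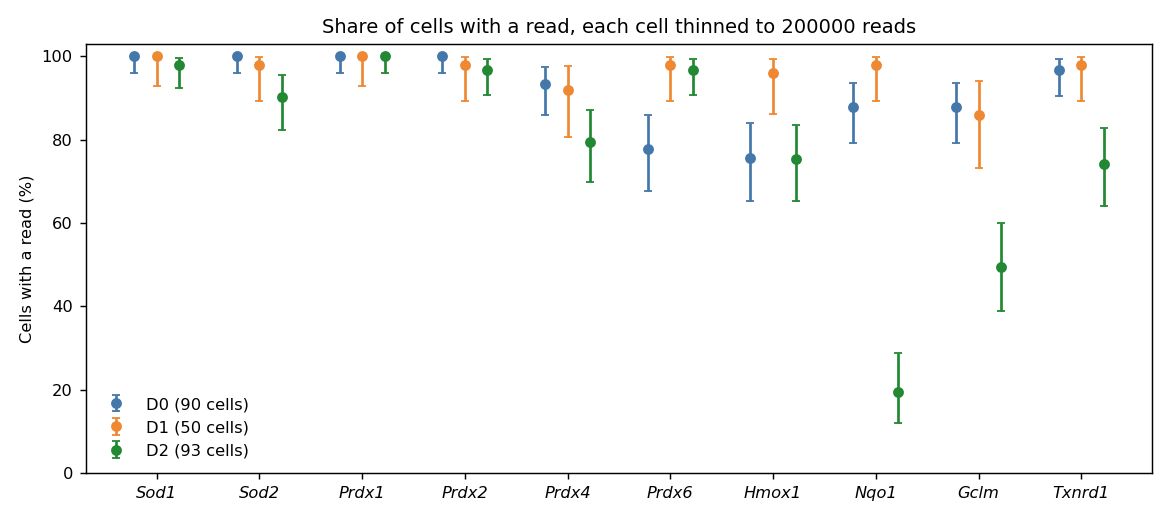
Percent of passing cells with at least 1 read of each gene after thinning each cell to 200000 reads (y axis), by gene (x axis) and label (colour), with exact Clopper-Pearson 95% intervals. Nqo1 (19.4%) and Gclm (49.5%) are lowest in D2, and Prdx1 is at 100% in all 3 labels.

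Detection of the set as a whole also differed. All 10 genes had a read in 47 of 90 D0 cells, 40 of 50 D1 cells and 7 of 93 D2 cells at equal depth, and the median cell had 10, 10 and 8 of them. The number of all genes that at least 50% of thinned cells had a read of was 7515, 7436 and 2896, so lower detection in D2 extended beyond these genes, and its part in their shares was not tested.

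Counts of genes past 2-fold were read against the 13784 genes with a mean of at least 1 CPM, all 10 members included. In D1 over D0, 4 members were higher (Prdx6, Hmox1, Nqo1 and Txnrd1), where 15.4% of all genes were, and 1 was lower (Sod2), where 27.2% were. In D2 over D0, 3 were higher (Prdx6, Hmox1 and Prdx1; 16.5% of all genes) and 1 was lower (Sod1; 28.3%). In D2 over D1, 0 were higher (20.0% of all genes) and 3 were lower (Sod1, Nqo1 and Txnrd1; 21.2%). The median log2 ratio of the members was 0.52, 0.37 and 0.46, beside medians over all genes of -0.26, -0.16 and 0.0028. Relative to that shift, the D1 over D0 ratio was 3.91 for Prdx6, 2.64 for Hmox1 and -0.92 for Sod2. The comparisons with D0 share their D0 cells, and those with D1 their D1 cells. Without the cells of departing Y-linked reads the D1 over D0 ratios were 3.60 for Prdx6, 2.37 for Hmox1, 1.44 for Nqo1, 0.999 for Txnrd1 and -1.24 for Sod2.

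**Figure D3:**
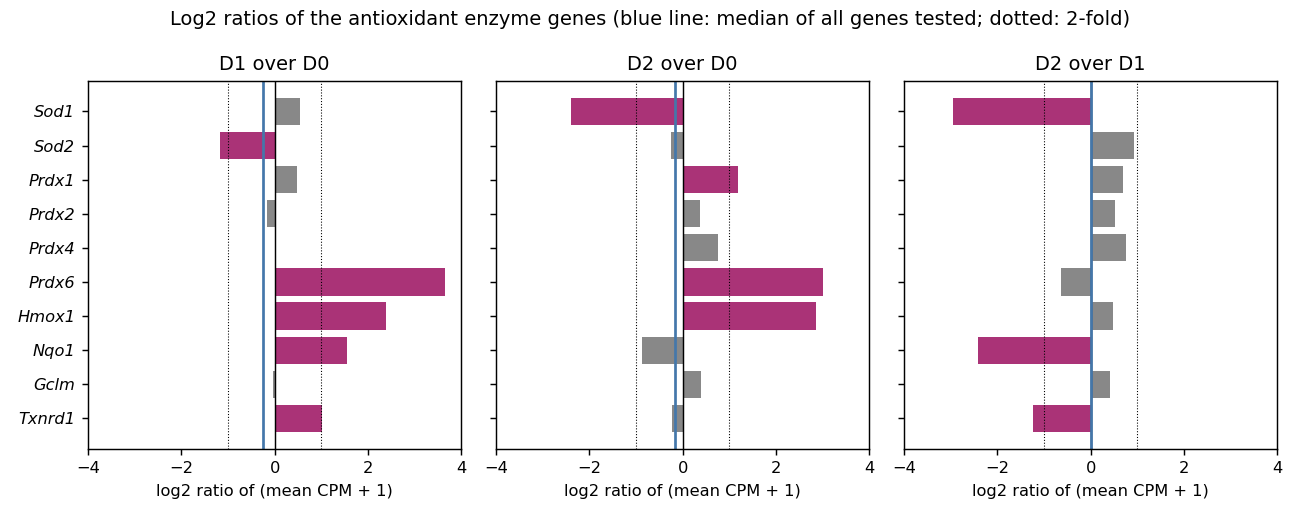
Log2 ratio of mean CPM + 1 (x axis) for each gene in each pair of labels, with bars of 2-fold or more in purple, dotted lines at 2-fold and a blue line at the median of all 13784 genes. Prdx6 and Hmox1 exceed 2 on the log2 scale in both labels over D0, and Sod1 and Nqo1 fall below -2 in D2 over D1.

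Members of the wider pathway were counted in the same way. Of 17 other known NRF2 targets tested (of 18), 2 were higher and 3 lower in D1 over D0, 1 was higher and 3 were lower in D2 over D0, and 2 were higher and 4 lower in D2 over D1, with medians of -0.13, -0.12 and -0.21. In each comparison and direction these are shares near or below those of all genes (15.4% higher and 27.2% lower, 16.5% and 28.3%, and 20.0% and 21.2%, in the same order of comparisons). Gclc, the catalytic partner of Gclm, had mean levels of 33, 24.6 and 4.63 CPM in D0, D1 and D2, a D2 over D0 log2 ratio of -2.60, and the D2 mean was 1.62 CPM without its highest cell. Gsr, glutathione reductase, was at 292, 68.3 and 69.7 CPM, and Me1, malic enzyme, at 69.7, 17.3 and 30.3 CPM. Without its highest cell (1043 CPM) the Me1 mean in D2 was 19.3 CPM, with a read in 19.4% of thinned D2 cells. Abcc4, an efflux transporter, was at mean levels of 43.9, 26.1 and 153 CPM but at medians of 43.4, 10.5 and 0 CPM, and 72.2%, 66% and 23.7% of thinned cells had a read, so the D2 mean came from a minority of cells.

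The gene of NRF2 (Nfe2l2) was at 122, 108 and 93.5 CPM, with no ratio past 2-fold. Of the 8 genes for NRF2 and its regulators, 2 were higher and 2 lower in D1 over D0, and 0 were higher and 5 lower in D2 over D0. In D2 over D1, 0 were higher and 4 lower, and the list medians were -0.48, -1.43 and -1.12. Over all genes 27.2% were lower in D1 over D0, 28.3% in D2 over D0 and 21.2% in D2 over D1. In the same order 15.4%, 16.5% and 20.0% of all genes were higher. Bach1, the repressor, was at 60.9, 12.9 and 3.58 CPM (log2 ratios to D0 of -2.15 and -3.76), and the small Maf partner Mafg at 141, 80.6 and 17.8 CPM (11.9 CPM in D2 without its highest cell). Mafk was at 2.54, 10.7 and 0.408 CPM, and Maff at 0.410, 3.35 and 0.134 CPM. The lowest of these means rest on few cells, and without the highest cell Mafk was at 0.152 CPM in D2 and Maff at 0.157 CPM in D0 and 0.0699 CPM in D2. In D1 the means without the highest cell were 9.30 CPM for Mafk and 2.45 CPM for Maff.

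Among 21 other antioxidant enzymes tested (of 22), 3 were higher and 2 lower in D1 over D0, 2 were higher and 2 lower in D2 over D0, and 3 were higher and 1 lower in D2 over D1, with medians of 0.24, 0.027 and -0.13, where 15.4%, 16.5% and 20.0% of all genes were higher and 27.2%, 28.3% and 21.2% lower. Gpx3, a secreted glutathione peroxidase, was at 5.00, 42.8 and 65.7 CPM, which gave log2 ratios to D0 of 2.87 and 3.47. The D2 median of Gpx3 was 0, a read was found in 12.2%, 60% and 18.3% of thinned cells in D0, D1 and D2, and without the highest cell (2184 CPM) the D2 mean was 42.6 CPM. Gss, glutathione synthetase, was at 217, 51.3 and 40.8 CPM, and Glrx, a glutaredoxin, at 66.3, 6.58 and 29.9 CPM. Txnrd2, the mitochondrial thioredoxin reductase, was at 11.7, 5.52 and 21 CPM, and its D2 mean was 6.40 CPM, below that of D0, without the highest cell. Mt1, a metallothionein, was at 979, 1647 and 416 CPM and Ftl1, ferritin light chain, at 390, 1787 and 613 CPM. Its copy Ftl2, named after its values were seen, was at 664, 36.8 and 1136 CPM, and the sum of both was 1054 ± 380, 1824 ± 727 and 1748 ± 903 CPM in D0, D1 and D2, so the values of Ftl1 alone are uncertain where reads were split between the copies.

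Whether the 10 genes varied together from cell to cell was described by Spearman's rho over pairs of genes that were read in 50% or more of the thinned cells of a label. In D1 all 10 genes qualified, and their 45 pairs had a median rho of 0.32 (n = 50 cells), with all 45 above 0 (0.078 to 0.69) and 27 at 0.3 or more. In D0 the median of 45 pairs was 0.094 (n = 90 cells), with 33 above 0 and 3 at 0.3 or more. In D2 Nqo1 and Gclm did not qualify, and the 28 pairs of the other 8 had a median of 0.071 (n = 93 cells), with 19 above 0 and 0 at 0.3 or more. Pairs of all qualifying genes reached 0.3 in 1.22% (D0), 8.76% (D1) and 0.721% (D2) of cases, with medians of 0.032, 0.056 and 0.015. Cells of a label share their culture, plate and library, and differ in depth and in the number of genes detected. The first principal component of the ranked values, taken from the matrix of Spearman's rho, held 20.2% of the variance in D0, 44.2% in D1 and 19.7% in D2, over 10, 10 and 8 genes.

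**Figure D4:**
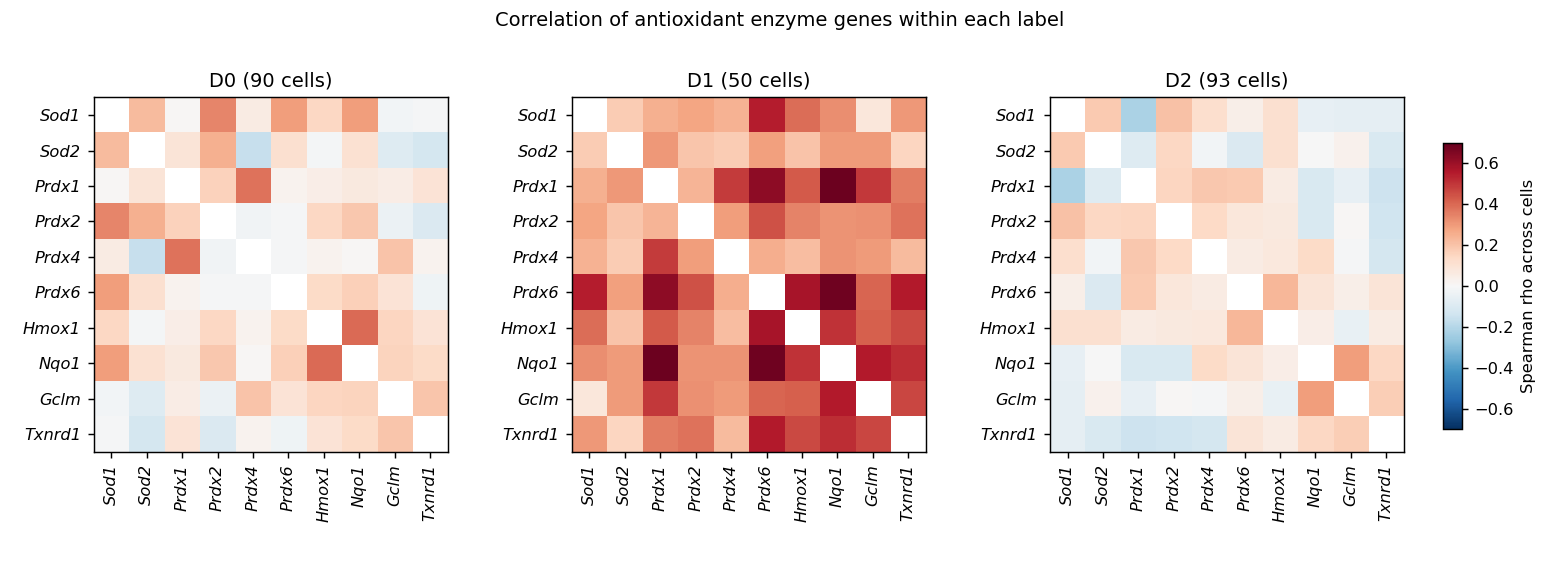
Spearman's rho across thinned cells for each pair of the 10 genes (colour, from -0.7 in blue to 0.7 in red) in each label. In D1 all 45 pairs are above 0, with Prdx1, Prdx6 and Nqo1 darkest, while D0 and D2 are mostly pale.

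The strongest D1 pairs were Prdx1 with Nqo1 (0.69), Prdx6 with Nqo1 (0.68), Prdx1 with Prdx6 (0.63) and Prdx6 with Hmox1 (0.58). Against the mean z-score of the other 9 genes in D1, rho was 0.74 for Prdx6, 0.73 for Nqo1, 0.66 for Prdx1, 0.60 for each of Txnrd1, Gclm and Hmox1, 0.47 for Prdx2, 0.43 for Prdx4, 0.39 for Sod1 and 0.29 for Sod2. This order was not shared by the other labels. In D0 Nqo1 (0.42) and Sod1 (0.35) were highest and Sod2 (0.12) and Prdx4 (0.11) lowest, with Gclm at 0.15 and Txnrd1 at 0.12. In D2, over 8 genes, Hmox1 (0.29), Prdx6 (0.21) and Sod1 (0.21) were highest and Txnrd1 (-0.13) lowest. In D0 the highest pair was Hmox1 with Nqo1 (0.40), followed by Prdx1 with Prdx4 (0.38), and in D2 it was Prdx6 with Hmox1 (0.23).

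**Figure D5:**
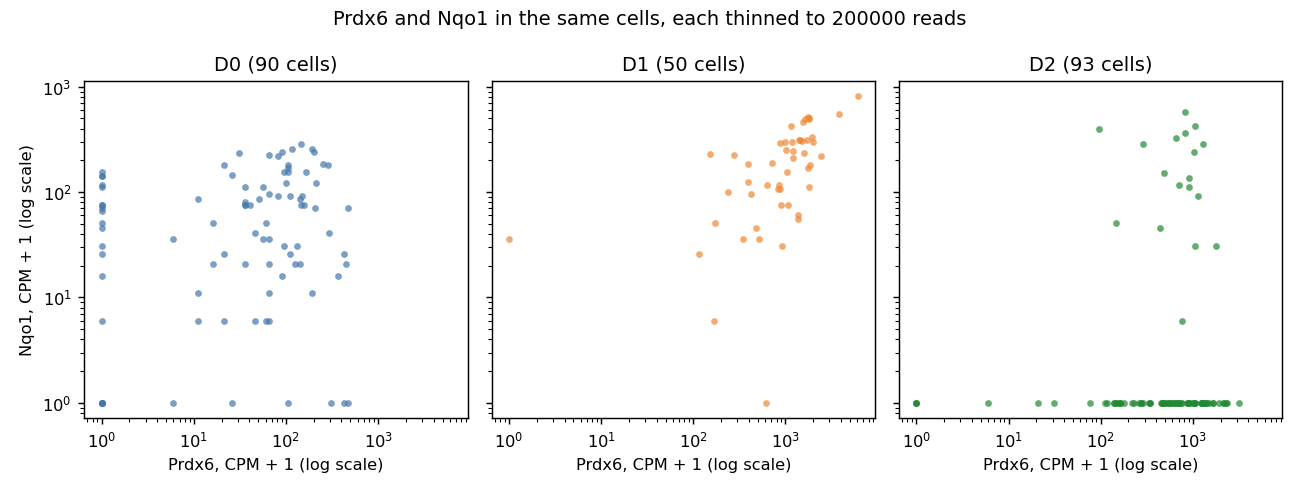
Each point is 1 passing cell thinned to 200000 reads, with Prdx6 on the x axis and Nqo1 on the y axis, both as CPM + 1 on log scales. The D1 cells lie along a rising band (rho 0.68), and most D2 cells lie at 0 for Nqo1 at any level of Prdx6.

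The mean z-score of the members in D1 had a rho with the number of genes detected at equal depth of 0.58, with 0.35 in D0 and 0.21 in D2, and its rho with total reads was 0.19 in D1 and -0.34 in D0. With the number of detected genes regressed out, the D1 median over pairs was 0.24, beside 0.023 over all pairs of genes. On either side of the plate it was 0.43 (columns 1 to 6, 24 cells) and 0.32 (columns 7 to 12, 26 cells). Without the 4 D1 cells of departing Y-linked reads it was 0.36. The D1 cell with reads of only 3 of the genes had 2172 genes in all, and leaving out each cell in turn gave medians from 0.29 to 0.36.

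Genes outside the 10 were set against the same score. In D1, 14 other NRF2 targets qualified, with a median rho of 0.39, and 9 of them reached 0.3, as did 19.1% of 7426 genes, whose median was 0.14. Among these were Gclc (0.47) and Gsr (0.50), and, chosen after their values were seen, Pgd of the pentose phosphate pathway (0.60) and the glutathione transferase Gstm1 (0.58). With detected genes regressed out the median of the 14 was 0.32, beside 0.034 for all genes. The other antioxidant enzymes had a median of 0.18 in D1 (4 of 15 at 0.3 or more), and NRF2 and its regulators 0.14 (1 of 6), with Nfe2l2 at 0.17 and Mafg at 0.43. The pluripotency markers had a median of -0.047 (0 of 8). In D0, where 7.01% of genes reached 0.3, 3 of 14 NRF2 targets, 4 of 15 other antioxidant enzymes and 2 of 8 pluripotency markers did so, with medians of 0.14, 0.15 and 0.20. In D2, where 1.07% did, 0 of 8 NRF2 targets, 0 of 5 other enzymes and 0 of 7 pluripotency markers did so.

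The 5 genes most like the score in D1 were Atic of purine synthesis (0.72), the imprinted genes Peg3 (0.72) and Mest (0.66), the nuclear pore gene Nup88 (0.64) and Sema4d (0.63). In D0 they were Actb (0.57), Mcm5 (0.56), Nutf2 (0.54), Fkbp4 (0.54) and Lsm4 (0.53). In D2 they were Ptges3 (0.44), Nucks1 (0.37), Srm (0.37), Phf5a (0.36) and Ppil1 (0.35). No gene was in more than 1 of these lists. Nothing is read from this, because each list holds only 5 of the 7505 (D0), 7426 (D1) and 2888 (D2) genes that qualified. The study lists Mt1 and Ftl1 beside Sod1 and Prdx6 among the markers of 1 cluster of 48 h cells, which it proposes may be under more stress. That cluster was not separated here, and the values that follow are correlations over all passing cells of a label. Mt1 and Ftl1 had rho with the score of -0.056 and 0.078 in D1. Over the 6 pairs of Mt1, Ftl1, Sod1 and Prdx6 the median rho was 0.13 (D0), 0.24 (D1) and -0.0070 (D2). The highest pair of the 4 genes was Sod1 with Prdx6 in D1 (0.55) and Mt1 with Ftl1 in D0 (0.34) and in D2 (0.26).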

How the data were processed

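The authors aligned the reads with HISAT2 to GRCm38 (per the labels) and deposited raw counts, as whole numbers for each gene and each of 288 wells. The annotation and the counting tool are not given in the sources used here, and the study's mitochondrial limit was read as a fraction (0.15). Counts were divided by the total on genes and brought to CPM. Ratios are log2(mean CPM + 1), with genes of at least 1 CPM over the 3 label means as background and 2-fold as the limit for a call. For shares and correlations each cell was thinned at random to 200000 reads (seed 1). All 10 genes are reported. From each list the 4 largest changes past 2-fold are named, and in each label the 5 genes most correlated with the members' mean z-score. The members and lists were chosen with earlier results of these data known. Alternatives were other pseudocounts and filters, summed reads, medians over cells, edgeR's TMM and median-of-ratios factors, totals without the 50 most abundant genes, either side of the plate, other seeds and depth limits, and leaving out cells with departing Y-linked reads. Leaving out each cell, means without the highest cell and gene pairs limited to a mean of 50 CPM, were added after the data were seen. Calculations used scipy 1.17.1, pandas 2.3.3 and numpy 2.4.6 under Python 3.11.15 and were tested on simulated data. Transcripts and positions came from GENCODE for GRCm38 and promoters from RefSeq for GRCm38.p6.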

Additional observations from a re-analysis of the deposited data

How the results depend on the processing

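No paired analysis was possible because no label has a second culture to pair. Of 12 member ratios past 2-fold, 0 changed sign under 180 alternative values, and 8 values in 2 ratios (Txnrd1 and Sod2 in D1 over D0) were under 2-fold. Their sizes moved more. The log2 ratio of Prdx6 ran from 2.23 to 4.12 in D1 over D0 and from 1.65 to 3.49 in D2 over D0, and that of Nqo1 from -7.47 to -1.86 in D2 over D1. Txnrd1 in D1 over D0 was 0.98 with 10 CPM as pseudocount, 0.92 with no filter on cells, 0.96 in plate columns 1 to 6, 0.999 without cells of departing Y-linked reads and 0.95 at the lowest of leaving out each cell. Of 18 ratios under 2-fold, 9 changed sign in some of the alternatives (21 values). The number of members lower in D1 over D0 was 0 with summed reads, TMM or median-of-ratios factors. The number higher in D2 over D0 was 5 with TMM, which added Prdx4 (1.05) and Gclm (1.02), and TMM also gave 5 higher in D1 over D0, with Sod1 at 1.01. The number higher in D2 over D1 was 1 with median-of-ratios factors, 2 with no filter on cells and 1 without cells of departing Y-linked reads. The number lower in D2 over D0 was 4 by the median over cells and 2 in plate columns 7 to 12. By the median over cells 4 were also lower in D2 over D1, where Gclm was at -2.72. The median rho over pairs was 0.18 in D0 and 0.43 in D1 with Pearson's r of log2(CPM + 1), 0.24 in D1 with detected genes regressed out and 0.43 in D1 in plate columns 1 to 6. In D2 it was 0.0996 in columns 1 to 6 and 0.026 in columns 7 to 12. Leaving out each cell gave 0.074 to 0.10 in D0, 0.29 to 0.36 in D1 and 0.058 to 0.088 in D2. With pairs limited to genes of at least 50 CPM, 1.90%, 13.5% and 0.773% reached 0.3 in D0, D1 and D2. The cause of these shifts was not tested. Genes at a few CPM, such as Maff, are limited by depth in single cells.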
